A study of Mus musculus with 8 samples.

Results

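The phagocyte NADPH oxidase was followed through 7 genes: Cybb, Cyba, Ncf1, Ncf4, Rac1, Rac2 and Cybc1. They were chosen by name, as subunits of the oxidase, its Rac GTPases and its chaperone, and all 7 were found among the 15853 genes of the deposited comparison. The cells were mouse macrophages grown from bone marrow for 7 days in L929 conditioned medium, which supplies the growth factor M-CSF, and then exposed for 24 h to palmitate (C16:0) at 250 uM, glucose at 25 mM and insulin at 10 nM. Poly(A) RNA was sequenced from 4 libraries of knockout cells (KO, genotype Mirc11fl/fl Mirc22fl/fl Lyz2Cre/Cre) and 4 libraries of control cells (fl/fl, genotype Mirc11fl/fl Mirc22fl/fl Lyz2+/+). Both genotypes carried the floxed alleles of the miRNA clusters Mirc11 and Mirc22, and both received the same exposure. The KO cells differed from the fl/fl cells by Cre recombinase on both copies of Lyz2, the gene that drives it in myeloid cells, so that Cre, the disruption of Lyz2 and the loss of the miRNAs cannot be told apart. The series calls the libraries biological replicates without saying that each came from its own animal, so what the p-values measure is the spread from library to library, and that spread may be technical.

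The phagocyte oxidase moves electrons from NADPH across a membrane to oxygen and so makes superoxide in phagosomes or outside the cell. Its core, cytochrome b558, is a pair of membrane proteins, the catalytic chain encoded by Cybb and the smaller partner encoded by Cyba, and Cybc1 encodes a chaperone that both need to mature. In resting phagocytes the organising subunits stay in the cytosol, and on activation they are phosphorylated, move to the membrane with GTP-bound Rac and switch the enzyme on. Macrophages are among the cells that express the whole complex, and in humans its loss causes chronic granulomatous disease.

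Most oxidase genes were modestly lower in KO macrophages. By the adjusted p of the authors' deposited table (DESeq2, threshold 0.05), 5 of the 7 genes fell (Cybb, Ncf1, Ncf4, Rac1 and Cybc1) and 0 rose, where 11.7% of the 14619 tested genes fell and 11.3% rose (23.0% in either direction). The threshold was missed by Cyba and Rac2, and at an unadjusted p under 0.05 there were 6 lower and 0 higher. The share of all tested genes at that unadjusted cut was not computed, here or for the lists below. Abundant genes were called more often, and among the 3275 tested genes with a mean at or above that of Cybc1, the lowest of the 7, 19.4% fell and 8.06% rose (27.4% in either direction). As deposited, 7 of the 7 log2 fold changes were below 0, against 50.7% of all tested genes and 61.2% of the abundant ones, but that of Rac2 was close to 0 and turned positive under the other scalings. The median log2 fold change of the 7 genes was -0.29, against -0.0040 over all tested genes and -0.05 over the 3275 abundant ones. Summed over the 7 genes, the group means implied by the authors' mean and fold change were 165469 normalized counts in KO cells and 202710 in fl/fl cells, a difference of -18.4%. In bulk RNA, fewer cells of a type and less RNA per cell cannot be told apart.

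**Figure D1:**
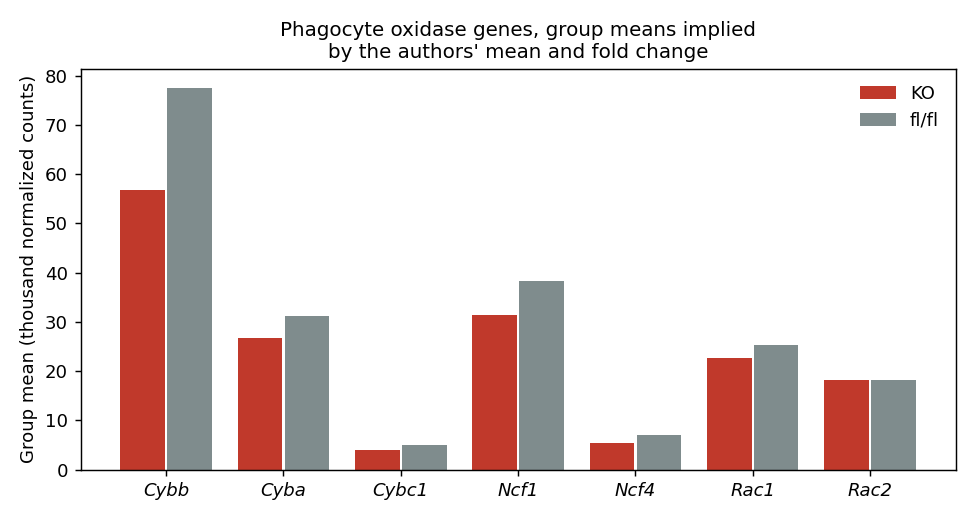
Group means of the 7 oxidase genes, in normalized counts scaled as the axis states, for KO (left bar of each pair) and fl/fl (right bar), as implied by the authors' mean over all libraries and fold change, with no error bars because the table gives none per group. The KO bar is visibly the shorter for Cybb (56853 against 77543 normalized counts), while the Rac2 bars are level (18251 and 18254).

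Values of single libraries were not used, since the 8 columns that hold them carry numbers which match no sample label, and no genotype was assigned to a column from its values. The depth of each library is therefore unknown here, and each gene is given by the mean over all libraries, the fold change and its standard error (SE) from the authors' deposited table. Group means were derived from the mean and the fold change with equal groups. No header names the numerator of the fold change, so direction was set by Lyz2, the gene into which Cre is inserted, which the authors' deposited table puts at -9.10 on the log2 scale (SE 0.42). Lyz2 is thus no independent check of the labels. Of the 10 markers of the labelled cell type, the 9 other than Lyz2, among them Csf1r, Cd68 and Adgre1, were present in both genotypes, the lowest (Mertk) with implied means of 13040 normalized counts in KO cells and 13177 in fl/fl cells. Mature miRNAs were not analysed here.

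Cybb, which encodes the catalytic chain that carries haem and flavin, fell the most. Its implied means were 56853 normalized counts in KO cells and 77543 in fl/fl cells. The authors' deposited table gave a log2 fold change of -0.45 (SE 0.10, DESeq2 adjusted p = 0.000127), a difference of -26.7%, with a 95% interval of the log2 fold change from -0.64 to -0.25. Of all tested genes, 6.46% had a lower log2 fold change than Cybb. The gene lies on chromosome X, 9435252 to 9487771 on the minus strand (mm10), and its main transcript has 13 exons and encodes 570 residues.

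Cyba, which encodes the membrane partner that stabilises the catalytic chain and offers the docking site for the organiser, did not pass. Its implied means were 26744 normalized counts in KO cells and 31251 in fl/fl cells. The log2 value for it in the authors' deposited table was -0.22 (SE 0.09, DESeq2 adjusted p = 0.0523), and the 95% interval, from -0.40 to -0.05, covers both the size seen for Ncf1 and a difference close to 0. With genes of a mean under 50 left out of the adjustment the adjusted p of Cyba was 0.0471 by DESeq2's p-values. With fold changes as deposited, its call thus turned on which low genes were counted. The gene lies on chromosome 8, 122424776 to 122432930, which is 38.2 Mb from the Mirc11 precursors on the same chromosome.

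Cybc1 encodes the endoplasmic reticulum chaperone of cytochrome b558, known from mice and humans to be needed for normal amounts of both chains. It had implied means of 4074 normalized counts in KO cells and 4971 in fl/fl cells. It fell, at -0.29 on the log2 scale (SE 0.07, DESeq2 adjusted p = 0.000286) in the authors' deposited table, a difference of -18.0%. The interval ran from -0.42 to -0.16. The gene is at chromosome 11, 121222588 to 121229322, and 68 exonic bases overlap Hexdc on the other strand.

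Of the cytosolic subunits, Ncf1 encodes the organiser that is phosphorylated and docks on the membrane partner, and Ncf4 encodes a subunit that binds a phosphoinositide of phagosome membranes. Ncf1 had implied means of 31433 normalized counts in KO cells and 38386 in fl/fl cells. Ncf1 fell, at -0.29 on the log2 scale (SE 0.08, DESeq2 adjusted p = 0.00429) in the authors' deposited table, with an interval from -0.45 to -0.13. Ncf4 had 5396 normalized counts in KO cells and 7015 in fl/fl cells by the same derivation. It fell as well in the authors' deposited table, at -0.38 (SE 0.12, DESeq2 adjusted p = 0.00913), with the widest interval of the 7 genes, from -0.61 to -0.15. Its SE was 1.58 times the median SE of the 500 tested genes closest to it in mean, against 1.11 times for Ncf1 and 1.33 times for Cybb, so Ncf4 is the least precisely measured for its abundance. Ncf1 lies on chromosome 5, 134220053 to 134229625, and Ncf4 on chromosome 15, 78244801 to 78262580. Gtf2ird2 overlaps Ncf1 by 408 exonic bases on the other strand and was itself called lower in the authors' deposited table (DESeq2), at -0.33.

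The Rac genes, which encode small GTPases that switch the assembled enzyme on in their GTP-bound form, had the fold changes closest to 0. Rac1, the broadly expressed one, had implied means of 22719 normalized counts in KO cells and 25291 in fl/fl cells. It fell, at -0.15 (SE 0.06, DESeq2 adjusted p = 0.0287) in the authors' deposited table, with an interval from -0.26 to -0.05. Rac2, the form restricted to blood cells, had 18251 normalized counts in KO cells and 18254 in fl/fl cells by the same derivation. The value in the authors' deposited table was -0.00025 on the log2 scale (SE 0.07, DESeq2 adjusted p = 0.998), and the interval from -0.14 to 0.14 corresponds to differences of -8.97% to 9.81%. Rac1 lies on chromosome 5, 143503634 to 143528036, and Rac2 on chromosome 15, 78559167 to 78572783. Daglb overlaps Rac1 by 2309 exonic bases on the other strand and was called lower in the authors' deposited table (DESeq2), at -0.30. The sources used here do not state a strand setting, so reads from Rac1 and Daglb, or from the other overlapping pairs, may not have been separated.

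Ordered from the lowest log2 fold change upward, the 7 genes ran Cybb, Ncf4, Ncf1, Cybc1, Cyba, Rac1 and Rac2. Neighbours in this order had overlapping 95% intervals, as did 18 of the 21 pairs of genes. The 3 pairs without overlap were Rac2 against Cybb, against Ncf4 and against Cybc1. The differences between genes were not tested, because the genes share libraries and the table gives no covariance.

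**Figure D2:**
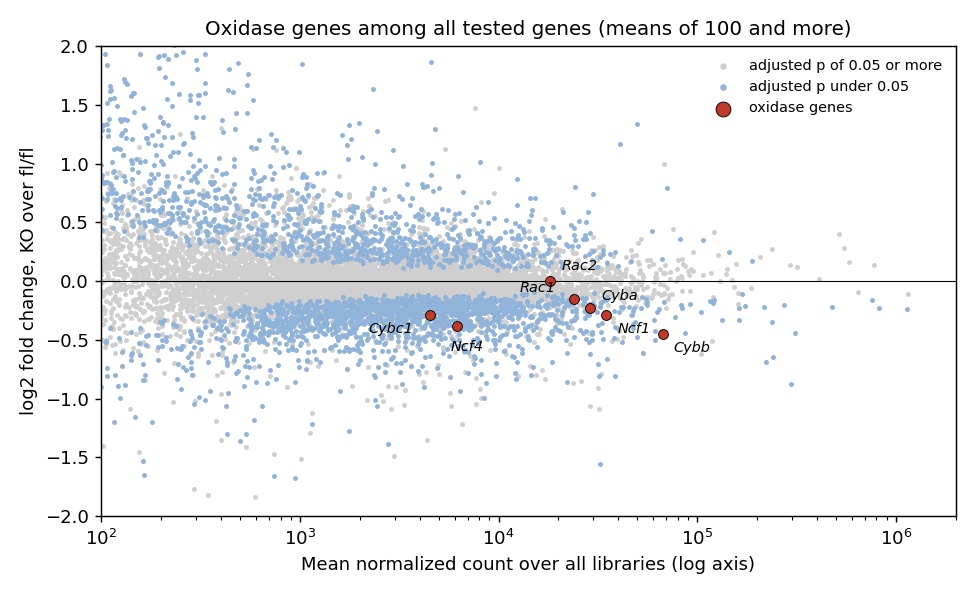
Log2 fold change, KO over fl/fl, against the mean normalized count over all libraries (log axis) for the tested genes within the plotted ranges, with genes under the 0.05 threshold in blue, other genes in grey and the 7 oxidase genes in red. Cybb, at -0.45, is the lowest of the 7, and Rac2 lies on the zero line.

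The size of these falls depends on how the libraries are scaled. As deposited, 1651 genes were called higher and 1712 lower. When the summed group means were made equal, which removes a shift of -0.06 and is called centring on the total, the split was 2339 higher and 960 lower (6.57% of tested genes). Without Lyz2 in the sums, 15.0% rose and 7.16% fell. With Lyz2 kept in the sums, Cybb (-0.38, adjusted p = 0.00133), Cybc1 (-0.22, adjusted p = 0.00669), Ncf1 (-0.23, adjusted p = 0.0333) and Ncf4 (-0.32, adjusted p = 0.036) were still called lower by a recomputed Wald test on the authors' deposited SE (DESeq2). Rac1 was not, at -0.09 (adjusted p = 0.237), and Rac2 turned to 0.06 (adjusted p = 0.56). Cyba, not called as deposited, stood further from the threshold by the same test, at -0.16 (adjusted p = 0.188). Centred on the median of all tested genes, a shift of -0.0040, the same 5 genes were called as in the deposited table and Rac2 stood at 0.0038, with 11.3% of tested genes lower and 11.5% higher. At an adjusted p under 0.01, 4 of the 7 genes were called lower, against 6.9% of tested genes lower and 7.16% higher. With no filter on low means 5 of the 7 were called lower, against 10.5% lower and 10.1% higher, and with a mean of at least 50 there were 6, against 15.2% lower and 11.3% higher.

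**Figure D3:**
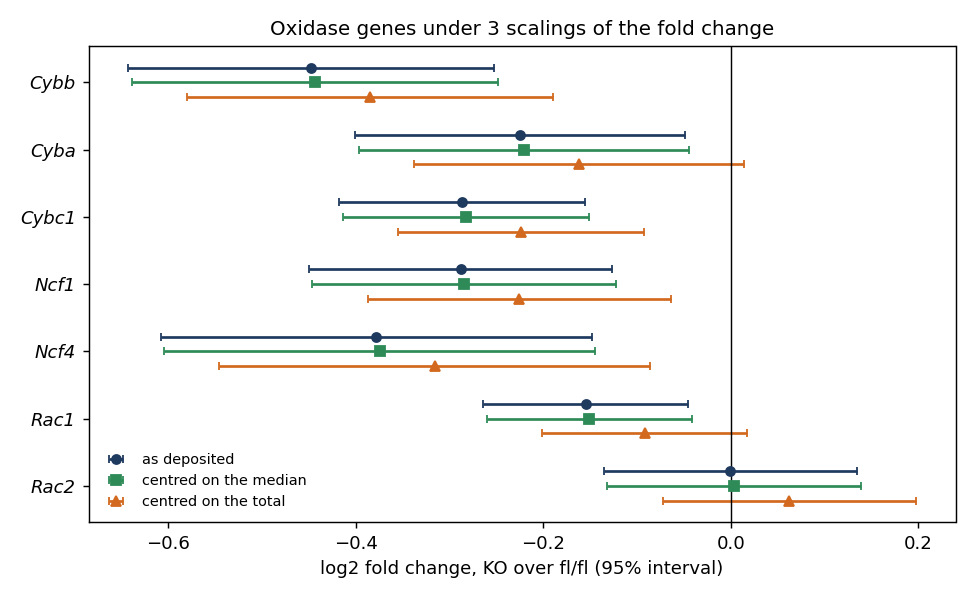
Log2 fold change, KO over fl/fl, of the 7 oxidase genes with 95% intervals from the authors' SE (DESeq2), as deposited (blue circles), centred on the median of tested genes (green squares) and centred on the summed group means (orange triangles). The intervals of Cybb, Cybc1, Ncf1 and Ncf4 stay below 0 under the 3 scalings, those of Cyba and Rac1 reach past 0 when centred on the total (upper ends 0.01 and 0.02), and that of Rac2 spans 0 throughout.

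Set per length of the main transcript, the levels of the genes over all libraries differed widely. Cyba, with a transcript of 744 bases, had the highest, at 38975 mean normalized counts per kb. Cybb had 14141 per kb, Ncf1 had 12830 per kb and Ncf4 had 4239 per kb. Rac2 and Rac1 were close to each other, at 6008 and 5772 per kb, and the chaperone gene Cybc1 was lowest at 1871 per kb. These levels carry no error, since the table gives none for the mean, and they rest on a single annotated transcript per gene. For the 7 genes, at most 4.16% of the 31-base words of that transcript (Rac2) occur in transcripts of another gene, so few reads could be shared with copies in the same orientation. Words were compared as written on the transcript. Overlaps with genes on the other strand, such as Daglb with Rac1, are therefore not counted.

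Members of the miR-23, miR-24 and miR-27 families come from the deleted clusters and bind 3' UTRs through the seed, bases 2 to 8 of the miRNA. The 3' UTRs of the oxidase genes were searched for 3 kinds of match: 7 bases opposite bases 2 to 8, 6 bases opposite bases 2 to 7 followed by an A, and 8 bases that combine both. The A lies opposite base 1 of the miRNA and need not pair with it. The reference used held no miR-23b-3p, so miR-23a-3p alone stood for the miR-23 family. The mature miRNAs found (RefSeq, GRCm38.p6) are shown with the seed in capitals, and both miR-27 forms share a seed:
miR-23a-3p: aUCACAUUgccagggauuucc
miR-27a-3p: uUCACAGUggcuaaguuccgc
miR-27b-3p: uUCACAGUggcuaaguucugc
miR-24-3p: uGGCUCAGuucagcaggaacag

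Only Cybb and Rac1, the genes with the longest 3' UTRs of the 7 (2965 and 3341 bases), held a match in GENCODE M21, and both were lower in KO cells. Of 13094 tested genes with an annotated 3' UTR, 53.4% held a match for at least 1 of the 3 miRNAs. No oxidase gene held a miR-27 match, which 28.8% of the genes did. A miR-23 match was held by 24.65% of the genes and a miR-24 match by 26.3%. The sites are shown 5' to 3' on the transcript with the match in capitals, since they are the positions at which these miRNAs could pair with oxidase transcripts:
Cybb, miR-23: gactagtcacATGTGAAaaaaaaaaaa
Rac1, miR-23: gaggtctgatAATGTGAgaattaagca
Rac1, upstream miR-24: gtatgtctgcCTGAGCCgtgtgtctgg
Rac1, middle miR-24: gatggggaagCTGAGCCAcggggcttag
Rac1, downstream miR-24: ttaaattcccCTGAGCCtaccacctgg

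The Cybb match is of the kind opposite bases 2 to 7 with a following A, so its last capital does not belong to the seed match proper, and it lies 1335 bases into the 3' UTR in exon 13, at chrX:9436876-9436882 on the minus strand (mm10). The matches of Rac1 lie in exon 6, on the minus strand of chromosome 5. Its miR-23 match is at 143504116 to 143504122, and its miR-24 matches are at 143505262 to 143505268, 143505208 to 143505215 and 143504147 to 143504153. The middle miR-24 match is of the 8-base kind, and the other Rac1 matches are opposite bases 2 to 8. The middle one was the sole 8-base match in the 7 genes, while 19.4% of the 13094 tested genes held an 8-base match. These letters show where pairing is possible and do not show that a site is used.

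Transcription factors known to act on oxidase genes were taken as a list. Of the 14 factors tested, 4 fell and 1 rose, with a median log2 fold change of -0.11. Of all tested genes 11.7% fell and 11.3% rose (19.4% and 8.06% of the abundant ones). Spi1, which encodes PU.1, the myeloid factor known from human cells to act on the promoter of the catalytic chain, fell at -0.34 (SE 0.10) in the authors' deposited table, with a DESeq2 adjusted p of 0.00462. Rela (-0.19, SE 0.06) and Nfkb1 (-0.10, SE 0.04), which encode NF-kB subunits, fell as well in the authors' deposited table. Both lost their calls when centred on the total (adjusted p = 0.111 and 0.538). Irf8, an interferon regulatory factor gene of the myeloid lineage, fell at -0.12 (SE 0.04) in the authors' deposited table, with a DESeq2 adjusted p of 0.0286, and centred on the total it was at -0.06 (adjusted p = 0.358). The factor that rose, Hoxa10, had a mean of 5.68 normalized counts, and its adjusted p was 0.0525 with no filter on low means. Centred on the total, 1 of the 14 was called lower and 1 higher, beside 960 lower and 2339 higher of all 14619 tested genes.

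The motif GAGGAA, the core that PU.1 binds, was searched on both strands (TTCCTC on the other) in RefSeq windows of 250 bases before to 50 bases after the transcript start (GRCm38.p6). Windows were found for 4 of the 7 genes: Cybb, Cyba, Ncf1 and Cybc1, the last with 2 windows. A match was present in the window of Cybb, 9 bases after the start, and in 1 of the 2 windows of Cybc1, 184 bases before the start, while Cyba and Ncf1 had none, and 28.3% of the 32851 windows of all genes held one. The windows with a match are shown on the gene's strand with the motif in capitals. They lie at chrX:9469275-9469574 and chr11:121228891-121229190, both on the minus strand, and both windows lie inside the GENCODE span of their gene, while the Cybc1 window that begins further upstream is the one without a match:
Cybb: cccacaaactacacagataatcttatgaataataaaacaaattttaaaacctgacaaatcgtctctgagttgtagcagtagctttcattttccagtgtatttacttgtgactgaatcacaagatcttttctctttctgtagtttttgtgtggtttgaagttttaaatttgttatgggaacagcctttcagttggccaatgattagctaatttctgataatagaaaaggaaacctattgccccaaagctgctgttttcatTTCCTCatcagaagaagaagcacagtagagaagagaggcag
Cybc1: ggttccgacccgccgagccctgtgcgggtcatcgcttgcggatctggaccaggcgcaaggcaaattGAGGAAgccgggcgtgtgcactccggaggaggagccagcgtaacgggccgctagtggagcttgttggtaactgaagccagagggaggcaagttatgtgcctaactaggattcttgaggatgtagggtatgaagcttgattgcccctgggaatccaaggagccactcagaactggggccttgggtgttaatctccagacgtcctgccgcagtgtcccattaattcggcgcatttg

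A match of these letters is a description of the sequence, and binding was not measured.

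Regulators of Rac were taken by role. Their counts stand beside 11.7% lower and 11.3% higher of all tested genes (19.4% and 8.06% of the abundant ones). Guanine nucleotide exchange factors load Rac with GTP. Listed with the Dock partners Elmo1 and Elmo2, which do not load Rac themselves, they gave 2 higher and 1 lower of 14 tested, with a median of 0.02. Among them, Tiam2 (1.04, SE 0.19) and Vav2 (0.29, SE 0.08) rose and Vav1 (-0.29, SE 0.11), the form typical of blood cells, fell in the authors' deposited table, where centring on the total ended the call of Vav1 (adjusted p = 0.133). GTPase activating proteins and dissociation inhibitors, which switch Rac off or hold it in the cytosol, gave 4 lower and 0 higher of 10 by DESeq2 (5 and 1 at an unadjusted p under 0.05), with a median of -0.20. Centred on the total, 3 were called lower and 1 higher, beside 960 lower and 2339 higher of all 14619 tested genes. Arhgap15, a Rac GTPase activating protein gene of leukocytes, was at -0.59 (SE 0.08, DESeq2 adjusted p = 1.49e-12) in the authors' deposited table. Arhgdia (-0.25, SE 0.05) and Arhgdib (-0.22, SE 0.07), which encode dissociation inhibitors, and Arhgap22 (-0.65, SE 0.19) were the other 3 in the authors' deposited table, and that of Arhgdib was lost when centred on the total (adjusted p = 0.0632). Of 6 relatives of Rac (median -0.06, and 0.00012 centred on the total), Rhog alone was called, lower at -0.34 (SE 0.08) in the authors' deposited table.

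Of 14 genes listed around the receptors that trigger the oxidase, 6 were called lower and 0 higher by DESeq2 (7 and 0 at an unadjusted p under 0.05). Of the 14, 13 were below 0 (median -0.32). Over all tested genes 11.7% fell and 11.3% rose, and over the abundant ones 19.4% fell and 8.06% rose. The list also holds the adaptor gene Card9 and the inhibitory Fc receptor gene Fcgr2b. Fcgr2b was 1 of the 6 called lower, at -0.995 (SE 0.352) in the authors' deposited table. Itgb2, which encodes the common chain of the beta 2 integrins, was at -0.50 (SE 0.07, DESeq2 adjusted p = 1.01e-10) in the authors' deposited table. Clec7a, the beta-glucan receptor gene, was at -0.85 (SE 0.17), Fcer1g, the signalling chain of activating Fc receptors, at -0.44 (SE 0.10) and Tlr2 at -0.44 (SE 0.13) in the authors' deposited table. Of 17 genes upstream of assembly, all for kinases but the phospholipase gene Plcg2, 4 fell and 1 rose. Their median of -0.10 is the value of Plcg2 itself. Btk (-0.16, SE 0.04), Akt1 (-0.15, SE 0.04) and Pak1 (-0.26, SE 0.10) fell and Pak2 (0.22, SE 0.08) rose in the authors' deposited table. Centred on the total, 0 of the 17 were called lower and 1 higher, beside 960 lower and 2339 higher of all 14619 tested genes.

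Among genes that support the oxidase, Hvcn1, the voltage-gated proton channel that offsets the charge moved by the enzyme, fell at -0.24 (SE 0.06, DESeq2 adjusted p = 0.00254) in the authors' deposited table. Clcn3, a chloride-proton exchanger gene of endosomes, rose at 0.34 (SE 0.08) in the authors' deposited table. Nrros, whose product is known in mice to promote degradation of the catalytic chain, stood at 0.27 (SE 0.11, DESeq2 adjusted p = 0.0525) in the authors' deposited table. That value just missed the threshold, and it passed with genes of a mean under 50 left out (adjusted p = 0.0472), centred on the median (adjusted p = 0.0489) and centred on the total (adjusted p = 0.0132). Of the 6 tested of 11 listed genes of other oxidases and their partners, Nox1 alone was called, higher at 1.25 (SE 0.40, DESeq2 adjusted p = 0.0119) in the authors' deposited table, with a mean of 43.1 normalized counts. Nox4 stood at -0.04 (SE 0.42) in the authors' deposited table, with a mean of 26.4. Over the 131 tested genes of all these pathway lists and those of NADPH supply, removal of reactive oxygen and haem synthesis, 26 fell and 16 rose, beside 11.7% lower and 11.3% higher of all tested genes and 19.4% lower and 8.06% higher of the abundant ones. Centred on the total the balance turned, to 12 lower and 24 higher. All 14619 tested genes turned the same way, from 1712 lower and 1651 higher to 960 lower and 2339 higher.

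**Figure D4:**
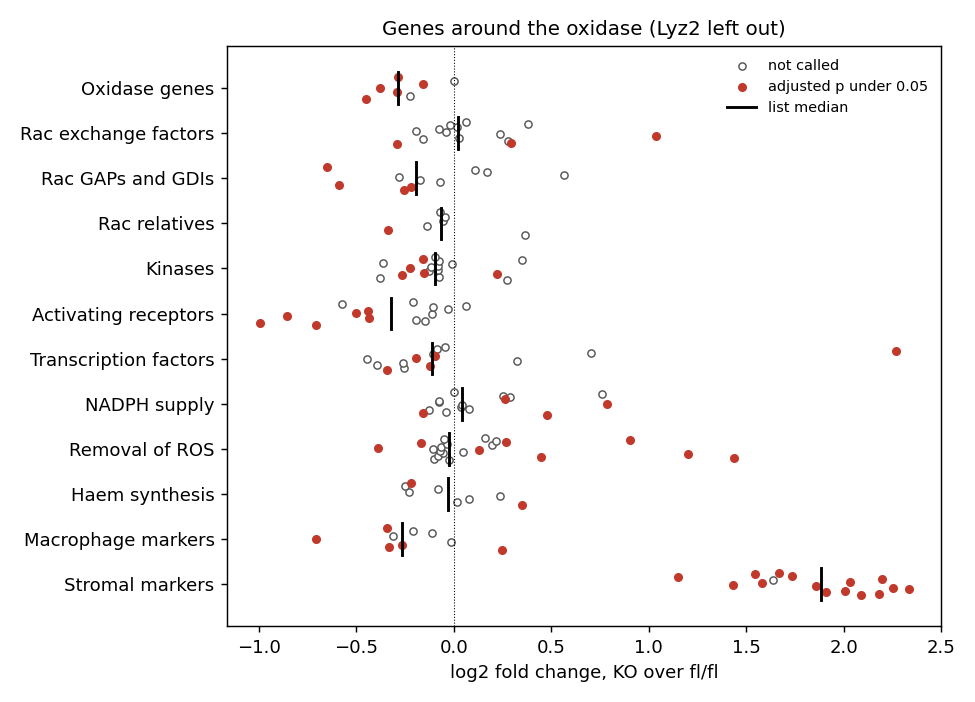
Log2 fold change, KO over fl/fl, of each tested gene (points, red where the adjusted p of the authors' deposited table was under 0.05) in 12 gene lists, with the list median as a bar and Lyz2 left out. The oxidase genes have a median of -0.29, near those of the list labelled activating receptors (-0.32) and of the macrophage markers without Lyz2 (-0.26). The list labelled activating receptors also holds Fcgr2b and Card9. The stromal markers lie apart at 1.88.

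Markers of cell types moved in the same comparison. Their counts stand beside 11.7% lower and 11.3% higher of all tested genes (19.4% and 8.06% of the abundant ones). Of the 9 macrophage markers other than Lyz2, 4 fell and 1 rose, and their summed implied level was 569728 normalized counts in KO cells and 638882 in fl/fl cells, a difference of -10.8%. Cd68 (-0.26, SE 0.07) and Csf1r (-0.33, SE 0.09) fell and Adgre1 (0.25, SE 0.07) rose in the authors' deposited table. Of 16 tested markers of stromal cells, 15 rose, with a sum of 8559 normalized counts in KO cells and 2356 in fl/fl cells. Neutrophils carry the oxidase at high levels, and of their 14 markers 8 were analysed here, with a sum of 6139 normalized counts in KO cells and 6667 in fl/fl cells. Of the 6 tested, Mmp8 alone was called, lower at -0.47 (SE 0.17) in the authors' deposited table, a call lost when centred on the total (adjusted p = 0.0716). Nearly all of the neutrophil sum came from Csf3r, Mmp9 and Mmp8, with means of 3401, 1897 and 961 normalized counts. Elane and Ltf were the lowest of the 8, with means of 3.33 and 2.68 normalized counts. Dendritic cell markers gave 0 called of 4 tested by DESeq2 (1 higher at an unadjusted p under 0.05), with a sum of 4315 in KO cells and 4051 in fl/fl cells, nearly all of it Itgax. Markers of lymphocytes and red cells gave 0 called of 2 tested by DESeq2, also 0 at an unadjusted p under 0.05. The part of these shifts in the lower oxidase levels was not tested.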

How the data were processed

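Poly(A) RNA-seq of 8 macrophage libraries, 4 per genotype, was available as the authors' comparison. Per the submitters' processing notes, the tools were Salmon, DESeq2, cutadapt and FastQC and the build mm10, named with no version or role. Per the file headers, each gene has a mean normalized count (signal) over all libraries, a log2 fold change with its SE, a Wald score, a p-value and its adjusted form, all as deposited by the authors. The 8 columns of values per library match no label and were not used, so depth per library is unknown and no replicate-level test was made.

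Of 15853 genes, 14619 have an adjusted p-value. Intervals are the log2 fold change plus or minus the 95% normal range of the SE. Centred fold changes were tested again with the deposited SE and Benjamini-Hochberg adjustment over the same genes. Positions and 3' UTRs follow GENCODE M21, built on GRCm38 (mm10). The adjustment, the centring and the search for seed matches were tested on simulated data. Python 3.11.15, scipy 1.17.1 and pandas 2.3.3 were used.

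The members and gene lists were chosen with earlier results of these data known. The text names the 7 genes, up to 4 called genes per list with the smallest adjusted p, and Nox1, Nox4, Hvcn1, Nrros, Spi1, Irf8 and Lyz2; another gene that the rule names is not reported here. Hoxa10, Itgax, Mertk, Elane, Ltf, Csf3r, Mmp9, Fcgr2b, Card9, Plcg2, Elmo1, Elmo2 and genes that overlap an oxidase gene fall outside that rule and were chosen after their values were seen. Fcgr1, Itgam, Mpo, S100a8, S100a9 and Spi1 stand in 2 lists each.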

Additional observations from a re-analysis of the deposited data

How the results depend on the processing

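Of the 7 oxidase genes, between 4 and 6 were called lower and 0 higher under every alternative run, which were no filter on low means, a mean of at least 50, an adjusted p under 0.01, and centring on the total, on the median and on the total without Lyz2, the last chosen after seeing the data (recomputed from the authors' DESeq2 values). The calls of Cybb, Ncf1, Ncf4 and Cybc1 held under all 6. Across these runs, the share of all tested genes called lower went from 6.57% (centred on the total) to 15.2% (mean of at least 50). The share called higher was smallest at an adjusted p under 0.01 (7.16%) and largest centred on the total (2339 of 14619 genes). Rac1 lost its call at the stricter threshold and under both total scalings (adjusted p = 0.237, or 0.181 without Lyz2). Rac2, never called, turned positive when centred on the total (adjusted p = 0.56), on the median (adjusted p = 0.976) and on the total without Lyz2 (adjusted p = 0.637), and Nox4, never called, did so on the total (adjusted p = 0.981) and without Lyz2 (adjusted p = 0.989). Of the pathway genes, 26 were called lower and 16 higher as deposited, 14 and 11 at an adjusted p under 0.01, 12 and 24 centred on the total, and 15 and 23 without Lyz2. Of all 14619 tested genes, 1712 were lower and 1651 higher as deposited, and 1009 and 1047 at an adjusted p under 0.01. These counts were 960 and 2339 centred on the total, and 1046 and 2197 without Lyz2, so the table as a whole turned the same way. Of 55 named genes, 13 lost their calls at an adjusted p under 0.01 and 12 centred on the total. With 8-base matches alone, 1 oxidase gene held a seed match in place of 2, beside 19.4% of 13094 tested genes. No paired analysis was possible because no label ties a column of library values to a sample or group, and columns were not assigned by a measured gene; for the same reason the refits without single libraries and with another pseudocount were not run. The weight of single libraries in these values was therefore not tested.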

Other observations

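Of 15 tested genes that supply NADPH, the electron donor of the oxidase, 3 rose and 1 fell, with a median log2 fold change of 0.04, beside 11.3% higher and 11.7% lower of all tested genes. G6pdx, which encodes the first enzyme of the pentose phosphate pathway, rose at 0.48 (SE 0.06, DESeq2 adjusted p = 1.74e-14) in the authors' deposited table. Me1, the cytosolic malic enzyme gene, was at 0.79 (SE 0.11) and Idh2, of mitochondrial NADPH supply, at 0.26 (SE 0.09) in the authors' deposited table. Pgls, which encodes the next enzyme after G6pdx, fell at -0.16 (SE 0.06, DESeq2 adjusted p = 0.0481) in the authors' deposited table, a call lost with no filter on low means (adjusted p = 0.0522) and when centred on the median (adjusted p = 0.0554) or on the total (adjusted p = 0.284). Centred on the total, 6 of the 15 were called higher and 0 lower, beside 2339 higher and 960 lower of all 14619 tested genes.

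Genes for the removal of reactive oxygen gave 6 higher and 2 lower of 21 tested, beside 11.3% higher and 11.7% lower of all tested genes. Their median was -0.02 and became 0.04 centred on the total. Gpx3, a secreted glutathione peroxidase gene, was at 1.20 (SE 0.19), Cat, which encodes catalase, at 0.45 (SE 0.09), Nqo1, a quinone reductase gene, at 0.90 (SE 0.24) and Prdx3, the mitochondrial peroxiredoxin gene, at 0.13 (SE 0.04) in the authors' deposited table. Centred on the total, 7 were higher and 0 lower, beside 2339 higher and 960 lower of all 14619 tested genes. The stromal markers, 15 of 16 called higher, rose in the same comparison, and their part in these rises was not tested. Of 8 haem synthesis genes (median -0.03, and 0.03 centred on the total), 1 rose and 1 fell. By the authors' deposited table these were Alas1, of the first enzyme, at 0.35 (SE 0.10), and Fech, of the last enzyme, at -0.22 (SE 0.08), whose call was lost when centred on the total (adjusted p = 0.142).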
